A study of Mus musculus with 2 samples.

Results

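Late-numbered miRNA genes are described here: mouse microRNA genes whose symbol is Mir followed by a number of 1000 or higher, the range given to hairpins that were catalogued late. Of 2202 miRNA genes in the tables, 640 carry such a number and lie outside the large imprinted miRNA cluster of distal chromosome 12, and 120 of these were selected on having at least 10 sense counts summed over both libraries. A sense count is a read on the annotated strand of the gene. The members were thus chosen by their own measured counts, so their levels are given as a description. The p-values below concern only how the reads of a gene divide between the 2 libraries, where the rule read their sum. The other 520 late-numbered genes outside that cluster had fewer than 10 counts, and 298 of them had 0. The 321 other miRNA genes with at least 10 counts serve as the background.

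The study profiled small RNA in a labelled size range under 30 from hearts of male mice at 4 days of age. The animals are B6CASTF1/J, the first-generation hybrid of C57BL/6J and CAST/EiJ, with no treatment or engineered allele in the labels. There is a single group of 2 libraries, labelled biological replicates 1 and 2 from animals numbered male 03 and male 04. Both libraries carry 1 donor identifier, so the spread between them could be technical, and no comparison between conditions exists.

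A miRNA is cut from a hairpin in a longer transcript by the Drosha and Dgcr8 complex, trimmed by Dicer and loaded into an Argonaute protein, where its seed (bases 2 to 8) pairs with target mRNAs. Some hairpins skip the first step: a mirtron is a short intron that folds on itself once it has been spliced and debranched, and a tailed mirtron shares only one end with the intron. Others lie within snoRNAs, scaRNAs (small Cajal body RNAs, which guide modification of spliceosomal RNAs) or tRNAs, whose fragments can enter the same pathway.

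The mature sequences of the most-read members show how unlike each other they are. They are printed 5′ to 3′ with the seed in capitals, as RefSeq gives them for GRCm38.p6, the assembly also called mm10. The counts combine both arms of a hairpin, so which arm gave the reads is not known from these data.
miR-1839-5p: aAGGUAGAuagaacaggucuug
miR-1983: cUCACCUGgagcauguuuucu
miR-1981-5p: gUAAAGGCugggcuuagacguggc
miR-1981-3p: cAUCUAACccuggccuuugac
miR-1306-5p: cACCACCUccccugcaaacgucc
miR-1306-3p: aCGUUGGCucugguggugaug
miR-1843a-5p: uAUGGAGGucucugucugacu
miR-1843b-5p: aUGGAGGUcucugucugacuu
miR-3102-5p: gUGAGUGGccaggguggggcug
miR-3102-3p: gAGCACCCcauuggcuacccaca
miR-1198-5p: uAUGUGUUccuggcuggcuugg
Mir1843a and Mir1843b are close copies, with 23 bases in common at the longest run of their hairpins, but their annotated 5p sequences start 1 base apart and their seeds are therefore different.

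The table of RefSeq sequences held mature entries for 110 of the 120 members. These gave 190 mature sequences and 188 different seeds, so the members do not form a seed family. A pair of seeds was shared between members, CACCCUG and CCUGGGA, and their carriers are shown for comparison.
miR-7018-3p: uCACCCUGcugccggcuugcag
miR-7068-3p: uCACCCUGgacugacucucag
miR-3474: cCCUGGGAggagacguggauuc
miR-6945-5p: uCCUGGGAggggcagccccugg
Of the members, 8 shared a seed with another miRNA gene that had at least 10 counts. Mir6958, for instance, shares UGGGAGA of its 5p sequence with a mature sequence of Mir30c-1 and Mir30c-2, and Mir7069 shares CUGCCCU of its 3p sequence with Mir18. No member with a mature entry shared a seed with any of the 20 most abundant miRNA genes by gene counts. That ranking leaves out multi-mapped reads.

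Together the members held little of the counted reads. They took 13602 of 4196577 sense counts in replicate 1, or 0.324%, and 8235 of 3801738 in replicate 2, or 0.217%. The 95% Wilson intervals were 0.319% to 0.330% and 0.212% to 0.221%. The mean share was 0.270% ± 0.0760 (SD, n = 2), or 0.185% without Mir1839, although members make up 27.2% of the genes with at least 10 counts. Each interval was computed within a single library and covers counting error only. Reads of an amplified library are not independent molecules, so even that error could be larger. Levels are given as CPM, a count divided by the sense total of its library and scaled up. The median member stood at 3.46 and 2.63 CPM in replicates 1 and 2. The medians of the 321 other genes were 124 and 88.6 CPM. The best-placed member ranked 84 among all genes by mean CPM. Gene counts leave out multi-mapped reads, which were 38.1% and 42.3% of reads in replicates 1 and 2. Shares and ranks here therefore describe the counted reads and not the whole cardiac miRNA pool.

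Few reads stood behind most members. A single read was worth 0.238 CPM in replicate 1 and 0.263 CPM in replicate 2, and 31 and 59 members had fewer than 10 counts in the respective library. By mean level, 6 members lay between 100 and 1000 CPM, 20 between 10 and 100 CPM and 94 under 10 CPM. The 4 members with the highest mean held 63.3% and 57.0% of the member counts of replicates 1 and 2, and the 20 highest held 87.5% and 86.7%.

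**Figure D1:**
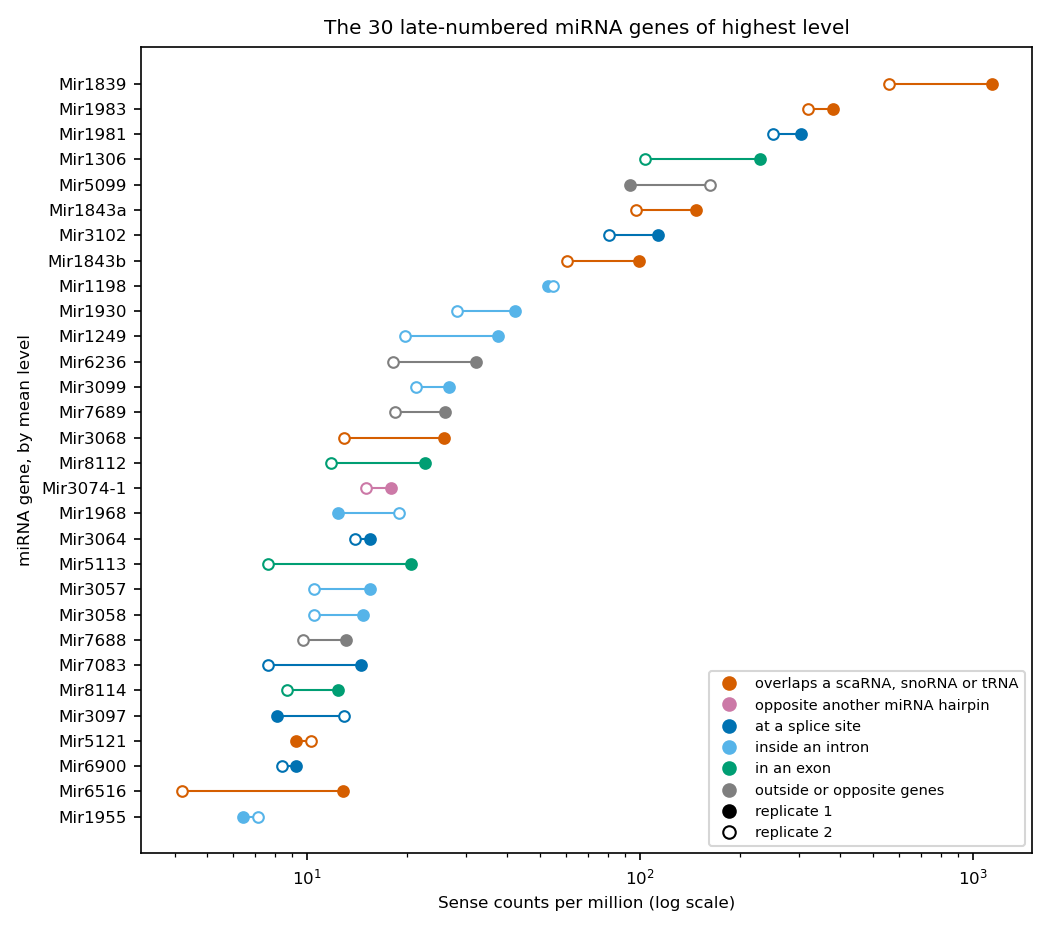
Levels of the 30 late-numbered miRNA genes with the highest mean, in CPM on a log scale. Filled points are replicate 1, open points replicate 2, and colours give the annotated position. Mir1839 stands apart at 1138 and 560.5 CPM, and replicate 1 is the higher library for most genes shown.

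The members closest to the minimum show what the rule keeps. With 10 counts in all, Mir1938, Mir3062 and Mir3086 each had 7 counts in replicate 1 and 3 in replicate 2, Mir3081 had 8 and 2, and Mir3082 had 5 and 5. With 9 counts, Mir3098 and Mir6939 each had 8 and 1, Mir6963 had 6 and 3, Mir5101 had 4 and 5, and Mir5126 had 3 and 6, and these were left out. Summed levels differed between number series. Numbers from 1000 supplied 25 members of 82 annotated genes and 2497 and 1565 summed CPM in replicates 1 and 2, and 27 of 84 genes of the 3000 series supplied 301 and 222 CPM. The 6000 series supplied 25 of 207 genes and the 7000 series 26 of 180. Their summed levels were 130 and 87.9 CPM for the 6000 series and 119 and 69.4 CPM for the 7000 series. None of the 4 genes of the 2000 series had 10 counts. The 5000 series supplied 13 of 51 genes and the 8000 series 4 of 32.

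Most members lay inside other genes, on the strand of the host. A same-strand host was annotated in GENCODE M21 for 107 of 120 members (89.2%), against 206 of 321 other genes (64.2%) and 380 of 520 late-numbered genes under the minimum (73.1%). The host was protein-coding for 102 members (85.0%) and for 132 other genes (41.1%). By host transcript, 85 members were intronic, 12 intronic or exonic depending on the transcript, 10 exonic, 3 opposite a gene and 10 intergenic. They were spread over 20 chromosomes, with 57 on the plus and 63 on the minus strand. Clustering was rare: 10 members (8.33%) had another miRNA gene within 10 kb on their strand, and in no case was that neighbour a member. Such a neighbour was annotated for 29 of 520 late-numbered genes under the minimum (5.58%) and for 179 other genes (55.8%). The imprinted cluster of distal chromosome 12 was left out of both late-numbered sets but stays among the other genes. The share of the other genes is therefore not on equal terms. All counts in this paragraph are over genes of 1 annotation and carry no test.

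For the account of levels, each member was placed in 1 class, by the first that applied. Overlap with a scaRNA, snoRNA or tRNA held 10 members, a hairpin opposite another miRNA hairpin 3, a splice site within 10 bases of a hairpin end 54, the inside of an intron 32, an exon 10, and a place outside genes or opposite them 11. The largest class by number and the largest by reads were different ones. The 54 members at splice sites held 18.8% and 21.3% of member counts, and the 10 overlapping another small RNA held 56.2% and 49.8%. Among the other 321 genes, 5 (1.56%) lay at a splice site and 6 (1.87%) overlapped such a small RNA.

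**Figure D2:**
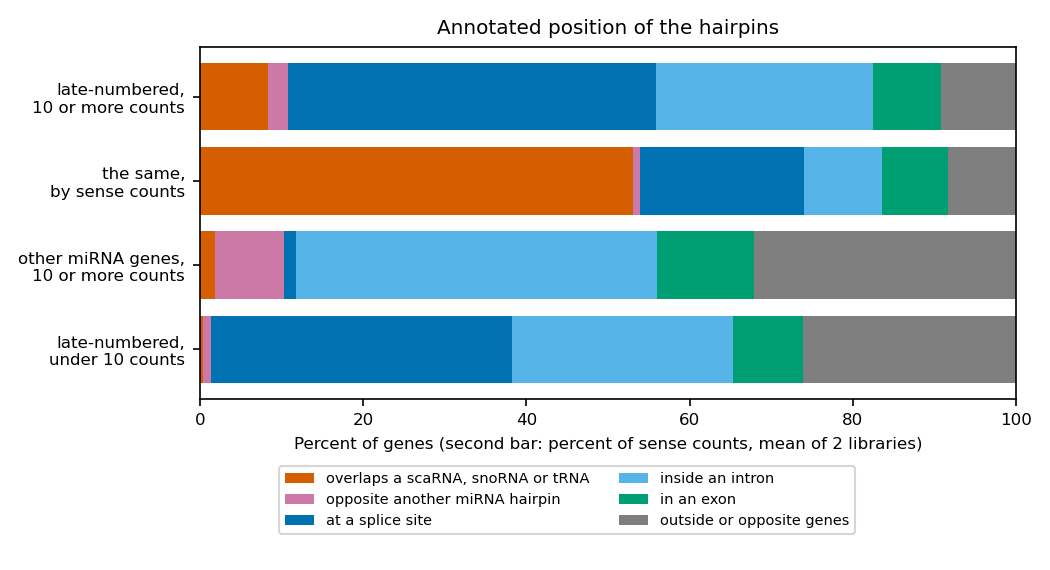
Annotated position of the hairpins as a percentage of genes in 3 sets, with a second bar weighting the members by sense counts. Splice-site hairpins make up 45.0% of the members and 36.9% of the late-numbered genes under the minimum, against 1.56% of the other genes.

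The 2 most-read members, and 4 of the 8 highest, overlapped other small RNAs. Mir1839 (chr7:81529916-81529988, plus strand) had 4777 sense counts in replicate 1 and 2131 in replicate 2, or 1138 and 560.5 CPM, a mean of 849 ± 409 CPM (SD, n = 2). It was the highest member in both libraries, and replicate 1 held the higher level, above replicate 2. Its log2 ratio of replicate 2 to replicate 1 was -1.02 (adjusted p = 5.3e-174, Fisher's exact test, adjusted over 441 genes, a comparison of 2 libraries that takes counting error as the only error). Of its 73 bases, 66 lie in an annotated scaRNA within the long non-coding gene 2900076A07Rik, and miR-1839-5p lies wholly inside that scaRNA, 64 bases from its 5′ end. Mir1839 alone held 35.1% and 25.9% of the member counts.

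Mir1983 (chr13:21896918-21897049, minus strand) followed with 1590 and 1216 counts, or 379 and 320 CPM (mean 349 ± 41.7). It overlaps 94 bases of n-TItat14, an isoleucine tRNA gene in RefSeq at 21896938 to 21897031, and no other gene. The mature miR-1983 printed above has 13 of its 21 bases inside the tRNA interval and 8 beyond it. On the hairpin's strand those 8 lie past the 3′ end. RefSeq's table here gives no strand for the tRNA.

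Mir1843a and Mir1843b sit in a pair of related scaRNAs. Mir1843a (chr12:80391613-80391677, minus strand), wholly within Scarna3b and the ubiquitin ligase adaptor gene Dcaf5, had 619 and 369 counts (148 and 97.1 CPM, mean 122 ± 35.7). Mir1843b (chr1:159340358-159340423, plus strand), in Scarna3a within the ubiquitin ligase gene Cop1, had 418 and 229 (99.6 and 60.2 CPM, mean 79.9 ± 27.8). Both were lower in replicate 2, with log2 ratios of -0.60 and -0.73 (Fisher's exact test, adjusted p = 4.25e-10 and 1.67e-09). Their hairpins share 4 windows of 20 bases, and the common run holds all of the printed miR-1843b-5p. Reads of exactly that sequence match both genes, and multi-mapped reads are not in gene counts. Some other reads of either gene could be multi-mapped as well. The 5p sequence ended 41 bases before the 3′ end of the GENCODE scaRNA in Mir1843a and 40 bases before it in Mir1843b.

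Similar distances were found in other members of this class. The 5p sequences of Mir1839, Mir3068, Mir3069 and Mir6516 ended 41, 42, 42 and 44 bases from the 3′ end of their annotated scaRNA or snoRNA, so these hairpins took the final stretch of the larger RNA. Mir3068, a snoRNA hairpin within Alkbh1, had 108 and 49 counts, and Mir6516, in the scaRNA Gm26083 of the host transcript Snhg20, had 54 and 16 (log2 ratio -1.61, Fisher's exact test, adjusted p = 8.05e-05). Mir3069, within Scarna13 of Snhg10, had 12 and 11 counts. In 2 others the mature sequence began at or near the 5′ end of GENCODE's snoRNA instead. That of miR-1291 (19 and 18 counts) began at the first base of GENCODE's Snora34, in Kansl2. RefSeq's Snora34 is shorter, and there miR-1291 starts 19 bases before the snoRNA, with 7 of its 26 bases inside. For miR-5121 (39 and 39 counts) the start was 2 bases into the GENCODE interval of Snord33, in the ribosomal protein gene Rpl13a. Mir1949 on chromosome 18 is 94.3% covered by a snoRNA and had 9 and 25 counts. Whether a read came from the miRNA or from the overlapping RNA cannot be told apart in gene counts.

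At splice sites, 2 arrangements were found. In 11 members both hairpin ends lay within 10 bases of the intron ends, and in 9 of these both matched to the base, as a mirtron's would. Such introns were short, 73 to 104 bases with a median of 85. In 42 members only the 3′ end lay at the acceptor, at the exact base for 35, in introns of 76 to 9193 bases with a median of 676.5. In 1, Mir3572 of the CCR4-NOT subunit gene Cnot3, only the 5′ end did. Allowing 5 or 30 bases in place of 10 gave 51 or 56 splice-site members, against 55 when Mir5121, counted above with the snoRNAs, is included.

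The members with both ends at splice sites carried most of the reads of the class, 450 of 608 CPM in replicate 1 and 352 of 462 in replicate 2, and most of these came from Mir1981 and Mir3102. Their hairpins, shown as DNA of the host strand from RefSeq's GRCm38.p6 table, are whole introns. Capitals mark the GT of the splice donor and the AG of the acceptor.
Mir1981: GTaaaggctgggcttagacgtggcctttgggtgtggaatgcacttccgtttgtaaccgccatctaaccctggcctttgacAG
Mir3102: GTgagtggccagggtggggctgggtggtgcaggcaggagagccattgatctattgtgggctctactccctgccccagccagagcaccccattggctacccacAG
Mir7018: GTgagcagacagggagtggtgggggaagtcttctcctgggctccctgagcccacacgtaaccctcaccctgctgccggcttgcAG
The 5p mature sequences of Mir1981 and Mir3102 printed earlier begin at the first base of the intron, with the donor's own letters.

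Mir1981 (chr1:184822407-184822488, minus strand), an 82-base intron of the mitochondrial amidoxime-reducing enzyme gene Marc2, had 1277 and 957 counts, or 304 and 252 CPM (mean 278 ± 37.2). Mir3102 (chr7:100882306-100882409, minus strand), a 104-base intron of Arhgef17, had 477 and 308 counts, or 114 and 81.0 CPM (97.3 ± 23.1). The drop after them was steep: Mir7018, an 85-base intron of the perlecan gene Hspg2, had 34 and 11 counts, and Mir6944, a 96-base intron of the drebrin gene Dbn1, had 29 and 14. Mir6958 of Dennd6b, Mir1982 of Oaz1, Mir1231 of Nav1, Mir7068 of Cherp, Mir7091 of Dnase1l1, Mir7070 of Fbxw9 and Mir3062 of Pfas had 22 to 10 counts in all, and the first of these was the higher in replicate 2, at 8 and 14.

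The members with only the 3′ end at a splice site were uniformly sparse, at 1.24 to 14.7 CPM with a median of 2.08. One such hairpin is shown, with the acceptor's AG in capitals.
Mir7083: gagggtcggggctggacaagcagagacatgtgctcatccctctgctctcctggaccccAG
Mir3064 in the RNA helicase gene Ddx5 had 65 and 53 counts, and its 3′ end runs 1 base past the intron. Mir7083 in Dock6 had 61 and 29, Mir3097 in Rgs12 34 and 49, Mir6900 in the respiratory complex I gene Ndufa10 39 and 32, and Mir6990 in the nuclear receptor gene Esrra 29 and 18. Hosts in this class are of many kinds, and 4 more are given as examples picked after their values were seen. Mir3100 lies in the myotonic dystrophy kinase gene Dmpk (25 and 10 counts), Mir6976 in Srf, a transcription factor of muscle genes (14 and 7), Mir7019 in Pink1 (15 and 6) and Mir7051 in Etfb (14 and 7).

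The letters of these hairpins follow the splice sites. All 45 members whose 3′ end was exactly at an acceptor ended in AG. Over the 54 splice-site members the share was 45 (83.3%), against 6 of 66 other members and 28 of 321 other genes (8.72%). Such an ending follows from the position and is not a separate finding. Over all members 51 (42.5%) ended in AG, and 180 of the 520 late-numbered genes under the minimum (34.6%) did. The mature 3p sequences of splice-site members had a median of 69.6% C plus U (n = 50), and the 5p sequences 32.6% (n = 48). In members elsewhere the medians were 54.5% (n = 35) and 48.9% (n = 36), and the 3p median of the other genes was 54.5% (n = 259). Late-numbered genes under the minimum had 3p and 5p medians of 67.4% and 38.1%, beside 66.7% and 38.1% over all members. An acceptor is preceded by a run of pyrimidines, and the 3p arm of such a hairpin lies on it. The splice-site hairpins were also short, with a median of 67 bases against 84 both in members elsewhere and in the 321 other genes. The folding energy per base that RNAfold computed was alike in these sets, at -0.41, -0.43 and -0.43 kcal/mol.

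**Figure D3:**
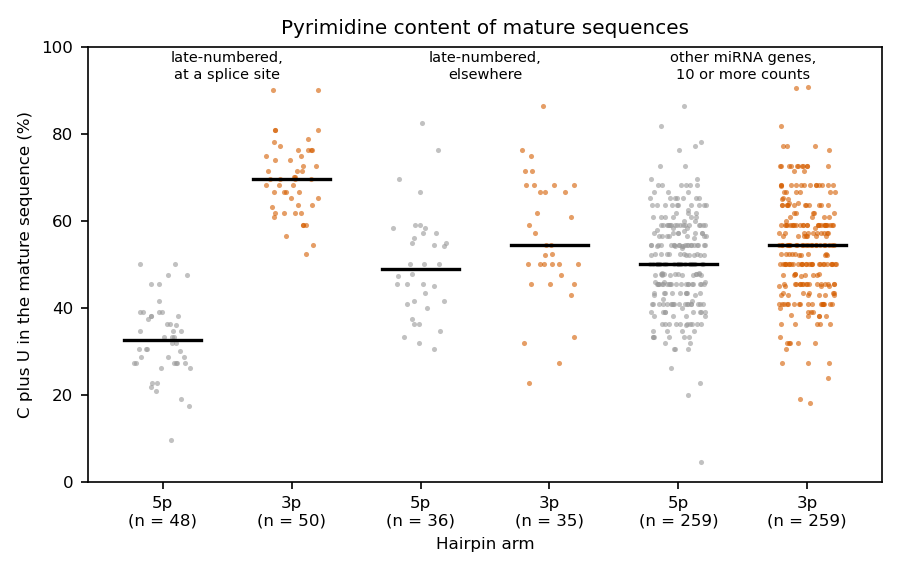
Percentage of C plus U in the mature sequences of the 5p and 3p arms, 1 point per sequence with the median as a bar. Splice-site members split into 3p medians of 69.6% and 5p medians of 32.6%, while the other sets lie at 48.9% to 54.5%.

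The 32 members inside introns, away from splice sites, held 8.84% and 10.3% of member counts. Mir1198 (chrX:7807101-7807221, plus strand), in the synapse-associated gene Gripap1, was the leading one with 222 and 208 counts, or 52.9 and 54.7 CPM (53.8 ± 1.28, log2 ratio 0.05, Fisher's exact test, adjusted p = 0.807). Among the 12 members with 100 or more counts on average it had the ratio nearest to equality on total-count scaling. Mir1930, in the ubiquitin-conjugating enzyme gene Ube2g2, had 177 and 107 counts (42.2 and 28.2 CPM) and Mir1249, in 5031439G07Rik, 157 and 75 (37.4 and 19.7 CPM). Mir3099, in the imprinted deubiquitinase gene Usp29, had 112 and 81, and Mir1968, in Grtp1, 52 and 72. The last was higher in replicate 2, with a log2 ratio of 0.61 (Fisher's exact test, adjusted p = 0.0356).

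Of the 10 exonic members, 8 lie in UTR exons and 2 in coding exons. Mir1306 (chr16:18284239-18284317, minus strand) lies in a coding exon of Dgcr8, the gene of the RNA-binding subunit of the complex that cuts miRNA hairpins. It had 962 and 394 counts, or 229 and 104 CPM (mean 166 ± 88.8), and held most of the class. Its log2 ratio was -1.15 (Fisher's exact test, adjusted p = 5.37e-43). Mir5113 lies in a UTR exon of Tnrc6b, whose protein is an Argonaute partner in silencing, and had 86 and 29 counts (log2 ratio -1.43, Fisher's exact test, adjusted p = 3.56e-06). Mir8112, in Krcc1, had 95 and 45 counts and shares 20-base windows with 57 other genes. Mir8114, in the glutamine synthetase gene Glul, had 52 and 33. Reads of the host exon lie on the same strand as these hairpins and cannot be told apart from miRNA reads in gene counts.

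Outside genes or opposite them, Mir5099 (chr12:36816205-36816278, plus strand) led with 393 and 617 counts, or 93.7 and 162 CPM (128 ± 48.5). It was the only one of the 8 highest members with more reads in replicate 2, with a log2 ratio of 0.79 (Fisher's exact test, adjusted p = 2.48e-17). Mir6236 had 135 and 69 counts and Mir7689, opposite Sorcs2, 109 and 70. Mir8111, with 5 and 14 counts, shares 20-base windows with 652 other genes, Mir1934, with 12 and 11, with 236, and Mir6236 with 6. The reads of Mir8111, Mir1934 and Mir6236 are therefore uncertain as to source.

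On strand, members gave almost no reads opposite themselves unless another hairpin lay there. Antisense counts made up 7.26% of sense plus antisense counts of the members in replicate 1 and 10.1% in replicate 2 (mean 8.69% ± 2.02, SD, n = 2), but 3 members accounted for all but 2 reads. Mir3074-1, opposite Mir24-1, had 75 and 57 sense and 215 and 285 antisense counts. Mir3107, opposite the red-cell miRNA Mir486, had 27 and 20 sense and 598 and 391 antisense. Mir3065, opposite Mir338, had 13 and 4 sense and 250 and 251 antisense. Each antisense count equalled the sense count of the partner to the read, so it is the partner's signal seen from the other strand.

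Within these pairs the late-numbered hairpin held fewer of the counted reads. Gene counts leave out multi-mapped reads, so the shares of Mir3107 and Mir3074-1 cannot rank these hairpins against their partners. The arms of Mir3107 are perfectly complementary along a run of mature length, so Mir486 on the other strand holds the same run. Mir3074-1 shares sequence with Mir3074-2, and Mir24-1 shares miR-24-3p with Mir24-2. Mir3074-1 held 25.9% of the counted reads of its pair in replicate 1 and 16.7% in replicate 2. The 95% Wilson intervals were 21.2% to 31.2% and 13.1% to 20.98%. Mir3107 held 4.32% and 4.87%, and Mir3065 4.94% and 1.57%. All 3 had 0 counts in the column that ignores strand, where a read over both genes is ambiguous. Of the other 117 members, 115 had no antisense count in either library, and Mir1945 and Mir3082 had 1 read each in replicate 1. Without the 3 paired members the antisense share was 0.0148% in replicate 1 and 0 in replicate 2.

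Of the 120 members, 28 were lower and 3 higher in replicate 2, with p-values of Fisher's exact test adjusted over 441 genes. Among all 441 genes, 36.5% were lower and 20.4% higher. Of the called members, 10 of the lower and 1 of the higher had 10 counts in only 1 library, and so met the minimum largely through the library where they were high. Restricted to genes with 10 counts in each library, 18 of 56 members were lower, against 43.3% of all such genes, and 2 were higher, against 86 of 344 genes (25%). The depth of the sets differed, with a median of 23 counts per member against 929 per other gene. The median log2 ratio was -0.66 over the 119 members with reads in both libraries, -0.19 over the other genes and -0.31 over all tested. TMM scaling, which moves every ratio by 0.24 on the log2 scale, gave 19 lower and 6 higher members against 26.3% and 28.1% of all genes. Under DESeq2 scaling, a shift of 0.31, Mir1983 and Mir1981, called lower on total counts, changed sign.

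Members of good depth, with 100 or more counts on average, numbered 12, and 2 of them, Mir1839 and Mir1306, lay more than 2-fold apart. Of all genes of that depth, 17.3% did. By Fisher's exact test 10 of the 12 were lower in replicate 2 and 1 was higher, beside 51.9% and 30.5% of all genes of that depth, and whether the shares differ was not tested. Among the 3 members called higher, Mir1949 had the largest ratio, at 9 and 25 counts (log2 ratio 1.62, Fisher's exact test, adjusted p = 0.00617). It is the 1 higher call that reached 10 counts only in replicate 2, the library where it was high. Mir7658, in a coding exon of Plekhn1, was the only member at 0 in a library, with 10 counts and 0, and entered the set through replicate 1 alone.

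**Figure D4:**
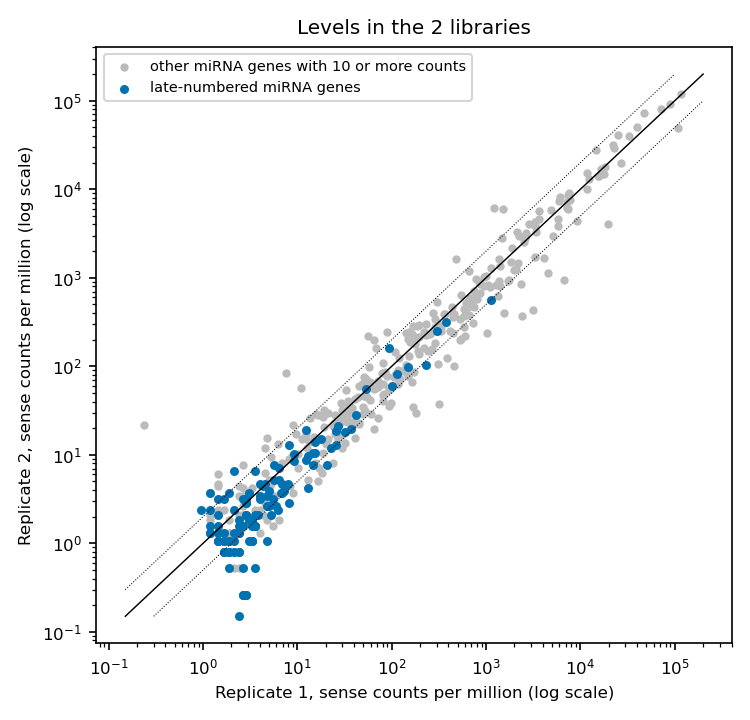
CPM in replicate 1 (horizontal) and replicate 2 (vertical), both on log scales, for the 441 genes with at least 10 counts. Members (blue) fill the lower left, the solid line marks equal levels, the dotted lines a 2-fold difference, and Mir7658, at 0 in replicate 2, is drawn at the lower edge.

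The labelled tissue was checked on marker genes. The 3 heart-muscle markers Mir208a, Mir208b and Mir499 summed to 13054 and 8858 CPM, with none at 0. Endothelial markers (Mir126a, Mir126b) summed to 109200 and 49330 CPM, of which Mir126a alone held 109199 and 49330 CPM. Smooth-muscle markers (Mir143, Mir145a) summed to 48576 and 79468 CPM. Mir126a and the smooth-muscle list thus moved in opposite directions between the libraries, and their part in the differences above was not tested. The liver marker Mir122 stood at 309 and 105 CPM. Of 5 measured neuronal genes 3 were at 0, and the list summed to 0.238 and 22.1 CPM, nearly all of it Mir9-3 in replicate 2. Epithelial markers summed to 299 and 354 CPM in replicates 1 and 2, and white-blood-cell markers to 1478 and 1542 CPM. Red-blood-cell markers summed to 493 and 400.3 CPM, and skeletal-muscle markers to 34.1 and 39.98 CPM. No gene of the epithelial, blood-cell and skeletal-muscle lists was at 0. Multi-mapped reads, which no gene count holds, were 38.1% and 42.3% of the 9591115 and 9293203 reads in the tables.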

How the data were processed

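MicroRNA sequencing tables of 2 heart libraries of 1 group were used. They hold raw read counts per miRNA gene, as deposited by the authors, aligned to mm10 with GENCODE M21 per the description files deposited; the aligner is not given in the sources used here. Column 3 holds sense counts, column 4 antisense counts and column 2 counts without regard to strand, as read from the values. Lines that name no gene were kept out of the totals. CPM is a count over the sum of column 3. Reads of CAST alleles may align less well, which was not tested. The members and lists were chosen with earlier results of these data known.

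Host genes, exons and splice sites came from GENCODE M21 (retained introns and small-RNA transcripts left out, at least 50% of the hairpin inside the host), tRNA genes and sequences from RefSeq, and folding energies from RNAfold 2.7.2. All 2202 gene IDs matched the annotation. Libraries were compared by a two-sided Fisher's exact test (scipy 1.17.1) with Benjamini-Hochberg adjustment over the 441 genes with at least 10 counts and a threshold of 0.05. The code was tried on simulated counts with counting error only. They hold no further spread between libraries, so the trial does not vouch for the calls made here. A quasi-likelihood fit that compares the 2 libraries gives each its own coefficient and leaves no residual degrees of freedom, so edgeR 4.0.16 was used for TMM factors alone; DESeq2's median-of-ratios size factors were the other scaling.

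Genes are named by a rule: the 20 members of highest mean CPM, members with more antisense than sense counts, those at splice sites or over small RNAs among the 40 highest, the 5 highest and 5 lowest ratios past the threshold at 20 or more counts on average, and 5 genes on each side of the minimum. Other named genes were chosen after their values were seen.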

Additional observations from a re-analysis of the deposited data

How the results depend on the processing

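The count minimum decides how many members there are: 56 with 10 counts in each library, 32 with 50 over both and 342 with 1 count, at median levels of 8.70 and 16.8 CPM for the first pair. The share of sense counts was 0.352% with counts that ignore strand and 0.185% without Mir1839, and ran from 0.217% to 0.324% when either library was left out; the median level ran from 2.63 to 3.46 CPM and the antisense share from 7.26% to 10.1%. The antisense share was 0.00741% without members opposite another hairpin, and 0 as a median over members. Of 32 members with 50 counts, 16 were intronic, against 85 of 120. With 10 counts in each library 20 members differed between the libraries, against 31. Members over 2-fold apart numbered 37 of the 119 with reads in both libraries, or 38 of 120 (31.7%) with Mir7658. Among the other genes 68 of 321 (21.2%) were, at a median of 929 counts against 23, and whether the shares differ was not tested. With a pseudocount, 20 of 120 members were that far apart at 1 CPM and 2 of 120 at 10 CPM. Mir1983 had a log2 ratio of 0.00 under TMM and 0.068 under DESeq2 scaling, and Mir1981 0.039 under DESeq2 scaling, against -0.24 and -0.27. Mir3102, Mir1930, Mir7689 and Mir1968 each lost the threshold under at least 1 alternative, and Mir1198 passed it under DESeq2 scaling. No paired analysis was possible because there is 1 group. Counts of 10 to 30, as most members have, leave wide counting errors, and no result here has more than 2 libraries behind it.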
